A study of Mus musculus with 31 samples.

Results

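Skin treated with jak3i for 24 weeks was compared with skin of the same arm at 0 weeks, the start of treatment. The rule took the 2 arrays titled for 24 weeks and the 3 arrays titled for 0 weeks, so 5 of the 31 arrays of the series entered this comparison, and each 24-week array is shown apart. The series treated established AA of C3H/HeJ mice, taken here to be alopecia areata, with topical JAK inhibitors, and measured total RNA of skin on Affymetrix arrays. Its other groups were jak3i at 6 and 12 weeks, and jak1i and PBS arms. PBS has 3 arrays each at 0, 6 and 12 weeks, and jak1i has 3 each at those times and 2 at 24 weeks. C3H/HeJ is an inbred strain that develops alopecia areata spontaneously or after grafting of affected skin. How these mice came to carry the disease, their age and sex, and the dose are not given in the sources used here. The compounds are named by code in the labels. PBS at 24 weeks was not analysed here, so 24 weeks of jak3i and 24 weeks of elapsed time cannot be told apart. The design text calls the replicates biological. The p-values weigh each difference against the spread between arrays within groups, pooled over all 11 groups of the series.

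As background, JAK3 is a kinase bound to the common gamma chain, the receptor subunit shared by the interleukins IL-2, IL-4, IL-7, IL-9, IL-15 and IL-21, and it signals there together with JAK1. T cells and NK cells depend on these cytokines. In alopecia areata, CD8 T cells that carry the killer receptor NKG2D gather around the hair bulb and release interferon-γ, which induces the chemokines CXCL9, CXCL10 and CXCL11 and the antigen-presenting molecules of the follicle. Hair follicles also cycle through growth, regression and rest, and the keratins of the hair shaft are made in growth. Bulk skin holds all of these cells, so fewer cells of a type and less RNA per cell cannot be told apart.

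The values are log2 intensities, and a difference of 1 is a 2-fold difference. A gene was called at an adjusted p of limma under 0.05 over all 18193 genes. The keratin gene Krt14 of the basal epidermis read 13.41, 13.89 and 13.69 at 0 weeks and 13.81 and 13.29 at 24 weeks, which fits the label of skin. The 2 arrays at 24 weeks differed from each other by more than 1 in 1082 genes (5.95%). Pairs of arrays at 0 weeks in the jak3i arm differed so in 531 to 691 genes, and 28 pairs within the other groups did so in 82 to 1497 genes, with 3 pairs above the 24-week pair. The median of all differences between 24 and 0 weeks was 0.05.

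Between 0 and 24 weeks, 20 of 18193 genes were called (0.110%), 17 higher (0.0934%) and 3 lower (0.0165%). Of the higher genes 9 rose at least 2-fold, and of the lower genes 0 fell that far. The rises held the class II genes H2-Ob and H2-Oa, the T cell adaptor gene Trat1, the surface molecule genes Cd7 and Cdh17, and the epidermal cytokine genes Il34 and Ccl27a. The falls were Prrc2c, Rrp1b and Pds5a. At an unadjusted p under 0.05 stood 2380 higher genes (13.1%) and 742 lower genes (4.08%), and the smallest adjusted p was 0.0372. In all 20 called genes the arrays at 24 weeks lay outside the range at 0 weeks, which held for 21.8% of all genes on the higher side and 11.8% on the lower side. Centring each array on its median removes 0.15 between the groups, the difference of their mean array medians. The median of all gene differences was only 0.05, so centring takes the typical difference below 0. It gives 2 higher and 8 lower calls in place of 17 and 3, with 5 of the 20 genes still called. The sign of all 20 was the same after centring.

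H2-Ob and H2-Oa encode the β and α chains of H2-O, a class II-like molecule of B cells, thymic epithelium and dendritic cells that restrains H2-M, the editor of peptides on class II. H2-Ob read 7.02, 7.02 and 7.26 at 0 weeks and 8.75 and 8.38 in replicates 1 and 2 at 24 weeks. H2-Oa read 6.52, 6.32 and 6.88 at 0 weeks and 7.87 and 8.11 at 24 weeks. For both genes each 24-week array stood above every array of the start, and also above every PBS array. H2-Ob rose by 1.47 (SE 0.24, 95% interval 0.97 to 1.96, limma adjusted p = 0.0372), a 2.76-fold rise. H2-Oa rose by 1.41 (SE 0.27, 95% interval 0.86 to 1.97, limma adjusted p = 0.0392), or 2.66-fold. At 12 weeks H2-Ob read 7.78, 7.75 and 7.38 and H2-Oa 7.42, 6.90 and 7.01, so both had intermediate levels there.

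The sequences before the starts of these genes are shown because the pair moved together and because class II promoters are known for a shared X box and Y box. Both are from RefSeq on build GRCm38.p6, read 5′ to 3′ on the plus strand over the 250 bases before the start, at chr17:34092129-34092378 for H2-Oa and chr17:34238655-34238904 for H2-Ob. Capitals mark the X box core, spelled CC, any base and then AGCAACA, and the CCAAT box, here in its reverse form ATTGG, which is the core of the Y box.
H2-Oa: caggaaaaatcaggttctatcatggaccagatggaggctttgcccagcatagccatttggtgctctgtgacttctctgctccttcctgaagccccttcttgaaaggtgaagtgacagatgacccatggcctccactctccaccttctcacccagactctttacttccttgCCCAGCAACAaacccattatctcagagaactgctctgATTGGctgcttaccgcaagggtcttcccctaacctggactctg
H2-Ob: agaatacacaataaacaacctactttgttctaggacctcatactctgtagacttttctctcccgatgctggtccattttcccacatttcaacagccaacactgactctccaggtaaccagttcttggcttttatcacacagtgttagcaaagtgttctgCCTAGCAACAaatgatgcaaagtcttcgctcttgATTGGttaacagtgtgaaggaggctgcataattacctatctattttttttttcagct
The X box core begins 80 bases before the start in H2-Oa and 91 bases before it in H2-Ob, and the CCAAT box 43 and 57 bases before it. The search covered both strands in windows of 300 bases, 250 before and 50 after the start. The X box core was found in 0.646% of 18109 promoters of 14452 genes and in 2 of 8 promoters of the class II list. Those 2 are the H2-Oa and H2-Ob promoters shown above, so this count gives no further example. The CCAAT box was found in 37.4% of all promoters, in 6 of 8 promoters of that list and in 35.7% of the 14 promoters of the called higher genes. The 2 motifs share no base. These letters were chosen after the sequences had been seen, and a match is a description, not a site of binding.

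The other class II genes moved less. H2-DMb2, a chain of the peptide editor H2-M, read 8.83, 8.84 and 8.86 at 0 weeks and 9.84 and 9.23 at 24 weeks, with a difference of 0.69 (SE 0.19, limma adjusted p = 0.124). H2-Eb1, a chain of the presenting molecule, read 12.12, 12.29 and 12.25 and then 13.11 and 12.56, with a difference of 0.62 (SE 0.24, limma adjusted p = 0.215). Both 24-week arrays lay above the start in these genes too, and in 6 of the 10 class II genes measured, beside 21.8% of all genes. Ciita, the master activator of class II genes and named after its values were seen, read 8.16, 8.01 and 7.66 at 0 weeks and 8.47 and 7.26 at 24 weeks, 1 array above and 1 below the start. The list had a median difference of 0.50, with 0.81 in replicate 1 and 0.18 in replicate 2, and 2 of 10 members called. Of the 13 B cell and plasma cell genes, 10 lay above the start mean in replicate 1 and 5 in replicate 2, and in 2 both arrays exceeded the start. The B cell receptor gene Cd79a, also named after its values were seen, read 4.17, 4.76 and 4.84 at 0 weeks and 4.56 and 4.48 at 24 weeks. Mzb1 of antibody-making cells read 6.05, 5.91 and 6.39 and then 6.74 and 6.44, above the start in both arrays without a call. The mean level of the 13 B cell and plasma cell genes was 6.28 to 6.90 at 0 weeks and 7.03 and 6.55 at 24 weeks, and its part in the H2-O result was not tested.

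Trat1, an adaptor that binds the T cell receptor complex, read 4.46, 4.13 and 3.94 at 0 weeks and 5.50 and 5.52 at 24 weeks. The arrays at 24 weeks agreed closely, and the rise was 1.34 (SE 0.22, 95% interval 0.87 to 1.80, limma adjusted p = 0.0372), although a further probe set of the gene gave 0.12. Cd7, a surface molecule of T and NK cells, read 6.69, 6.47 and 6.68 and then 7.55 and 7.87, a rise of 1.10 (SE 0.20, limma adjusted p = 0.0392). Cdh17, a cadherin of cell adhesion known from the intestine, read 5.49, 5.29 and 5.39 and then 6.89 and 6.06, a rise of 1.09 (SE 0.21, limma adjusted p = 0.0392). Replicate 1 stood higher than replicate 2 in Cdh17, the reverse of Cd7.

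Il34 encodes a ligand of the CSF1 receptor that keratinocytes make and that Langerhans cells need. It read 7.10, 6.97 and 6.89 at 0 weeks and 8.06 and 8.73 at 24 weeks, a rise of 1.41 (SE 0.27, limma adjusted p = 0.0392), and at 12 weeks it stood at 8.58, 8.18 and 7.97, overlapping with the 24-week arrays. Ccl27a encodes a chemokine of keratinocytes that draws T cells to skin. It read 5.80, 5.28 and 5.45 and then 6.27 and 6.74, a rise of 0.99 (SE 0.18, limma adjusted p = 0.0392). Replicate 2 was the higher array in both genes. The Langerhans cell receptor gene Cd207 read 7.90, 8.43 and 9.03 and then 9.60 and 9.66, above the start in both arrays, but its difference of 1.18 (SE 0.40, limma adjusted p = 0.168) was not called.

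The remaining rises lay between 0.48 and 1.39. Pkib, an inhibitor of protein kinase A, read 8.10, 8.13 and 7.84 at 0 weeks and 9.07 and 9.75 at 24 weeks, a rise of 1.39 (limma adjusted p = 0.0372). Plxdc1, a membrane protein of tumour vessels, rose by 1.35, with a further probe set at 0.13. Gem, a small GTP-binding protein that restrains calcium channels, rose by 1.23, and Arhgap18 by 1.0, with a further probe set at −0.13. Smaller rises were those of the cytoskeletal gene Septin6 (0.87), the long non-coding RNA Chaserr (0.79), the retinoblastoma relative Rbl2 (0.70), Stk11ip (0.68), whose product binds the kinase LKB1, Ccdc126 (0.59) and AI837181 (0.48). Of the 20 called genes 10 have several probe sets, and in 2 of these, Arhgap18 and Septin6, probe sets differed in sign.

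Prrc2c read 10.83, 11 and 10.66 at 0 weeks and 10.24 and 9.45 at 24 weeks, a fall of −0.98 (SE 0.19, limma adjusted p = 0.0392). Rrp1b, a nucleolar protein of ribosome assembly, read 8.25, 8.05 and 8.16 and then 7.51 and 7.29, with a fall of −0.75 (SE 0.14, limma adjusted p = 0.0392). Pds5a, a partner of cohesin, read 9.20, 8.90 and 8.80 and then 8.45 and 8.13, with a fall of −0.67 (SE 0.13, limma adjusted p = 0.0392). Each 24-week array lay below the start in all 3 genes, and replicate 2 was the lower. The next smallest p on the lower side did not pass. Papola, a poly(A) polymerase, stood at −1.40 (limma adjusted p = 0.0557), Ndufaf4, an assembly factor of respiratory complex I, at −0.63 (limma adjusted p = 0.0574) and the RNA polymerase I gene Polr1a at −0.93 (limma adjusted p = 0.0579).

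**Figure D1:**
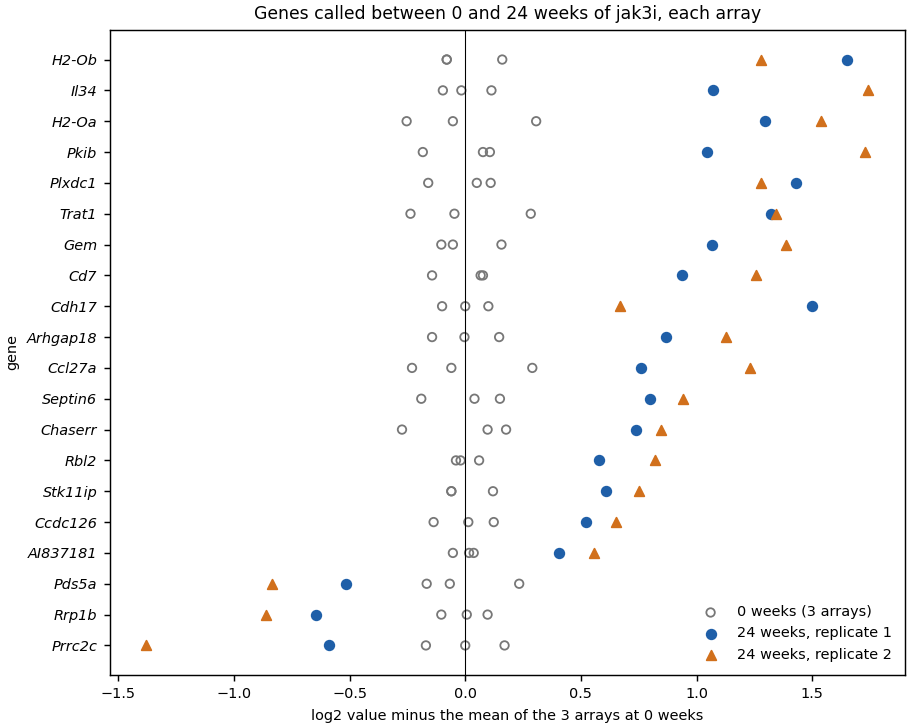
Log2 value minus the mean of the 3 arrays at 0 weeks (x axis) for the 20 called genes (y axis), with open circles for 0 weeks, blue circles for replicate 1 and orange triangles for replicate 2 at 24 weeks. For each gene both 24-week arrays lie to the same side of all 3 start arrays, from 1.47 on average in H2-Ob to −0.98 in Prrc2c.

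The called genes were chosen for their distance from the jak3i start, and their values in other arrays are given as a description. In 16 of the 17 higher genes both 24-week arrays exceeded all 9 PBS arrays (6.62% of all genes), and in all 3 lower genes both lay below them (1.92%). The exception was Ccdc126, which read 6.90 to 7.16 at 0 weeks of jak3i, 7.40 to 7.78 at 0 weeks of PBS, and 7.56 and 7.69 at 24 weeks of jak3i. In 15 of the 20 genes both 24-week arrays were also beyond every jak3i array at 12 weeks, in the direction of the change from the start. Over all genes, both 24-week arrays lay above every 12-week array in 16.7%. The 15 genes include the 3 lower ones, and the matching share on the lower side was not computed. The 20 genes had been chosen with these same 24-week values.

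The call count rests on few arrays. In fits that left out the start arrays 1, 2 or 3 in turn, 2, 0 and 0 genes passed, and 0 passed with the compared arrays alone, with the mean of all probe sets, or with the hair keratin or muscle level of each array as a covariate (smallest adjusted p from 0.0523 to 0.359).

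Seen singly, the 2 arrays at 24 weeks gave different counts. Replicate 1 alone against the 3 start arrays gave 1 call, Cdh17 at 1.51 (limma adjusted p = 0.0222), with 894 genes at an unadjusted p under 0.05. Replicate 2 alone gave 310 calls, 245 higher (1.35% of all genes) and 65 lower (0.357%), with 3901 genes at an unadjusted p under 0.05. In these fits the lone array is assumed to vary like the other groups. Of the 20 genes called with both arrays, 18 were called with replicate 2 alone and 1 with replicate 1 alone.

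The largest calls of replicate 2, named after their values were seen, show where the arrays parted. Scgb1a1, a secretoglobin known from airways, read 5.78, 4.88 and 5.32 at 0 weeks, 6.80 in replicate 1 and 9.46 in replicate 2. The growth factor gene Fgf18, made by resting hair follicles, read 5.41, 5.22 and 6.97 at 0 weeks, 5.66 in replicate 1 and 9.06 in replicate 2. The gut hormone gene Cck read 5.36, 5.02 and 5.66 at 0 weeks, 5.14 in replicate 1 and 8.26 in replicate 2. In Fgf18 and Cck replicate 1 was at the level of the start, and replicate 2 alone stood above it. Downward, the cystatin gene Stfa3 of stressed epidermis read 11.87, 11.62 and 12.48, then 10.45 and 7.23. The granule protease gene Gzma of killer lymphocytes read 10.11, 10.33 and 9.63, then 9.49 and 6.56. In both of these each 24-week array lay below the start, replicate 2 by far the more.

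**Figure D2:**
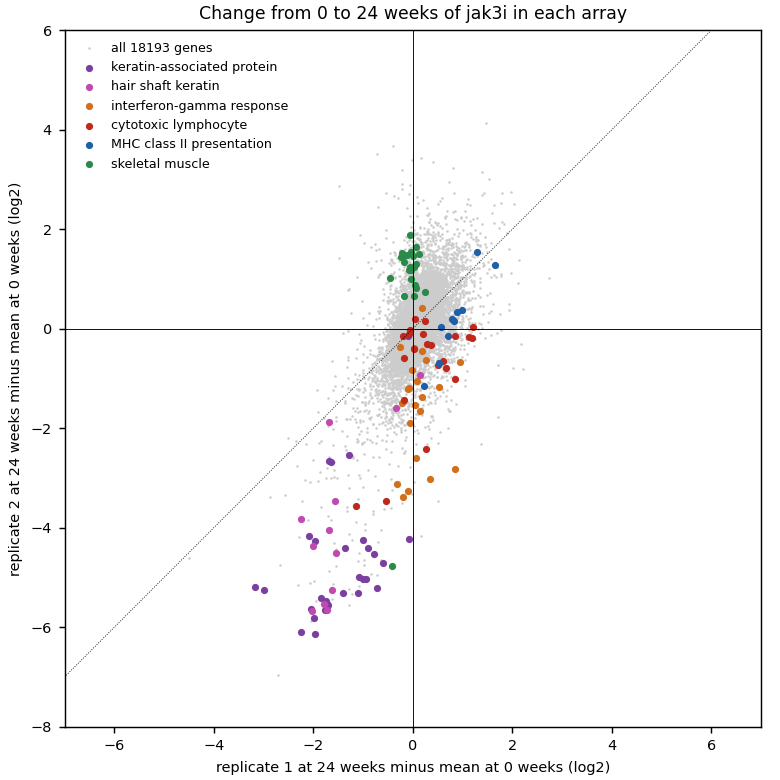
Log2 difference from the mean at 0 weeks in replicate 1 (x axis) and replicate 2 (y axis) at 24 weeks, for all 18193 genes in grey and 6 gene lists in colour, with the dotted line of equal difference. Keratin-associated protein genes lie far below 0 in both arrays and lower in replicate 2 (median −5.11) than in replicate 1 (median −1.67), and interferon-γ genes lie near 0 in replicate 1 (median 0.07) and below it in replicate 2 (median −1.21).

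Cytotoxic lymphocyte genes stood near their starting level in replicate 1 and lower in replicate 2. The 22 genes measured had a median difference of −0.05, with 0.25 in replicate 1 and −0.32 in replicate 2, and 0 were called. Gzmb, a granule protease gene, read 10.27, 10.07 and 8.77 at 0 weeks and 8.57 and 6.14 at 24 weeks, with a difference of −2.35 (SE 0.82, 95% interval −4.04 to −0.65, limma adjusted p = 0.172). The difference of Gzma was −2.0 (SE 0.79, 95% interval −3.64 to −0.35, limma adjusted p = 0.218). Both granzyme genes lay below the start in both arrays. Other genes of the same cells overlapped with it: the pore gene Prf1 read 6.70, 7.22 and 6.47 and then 6.63 and 6.21, and Klrk1, which encodes NKG2D, read 6.77, 6.81 and 6.70 and then 7.36 and 6.12. The ligand gene Fasl, through which killer cells trigger death, read 4.32, 5.50 and 4.33 and then 5.38 and 3.93.

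T cell genes lay above the start in replicate 1 and on both sides of it in replicate 2. Their list of 20 genes had a median of 0.38, with 0.71 in replicate 1, where all 20 lay above the start mean, and −0.01 in replicate 2, where 10 did, beside 57% and 56.3% of all genes. In 6 of the 20 both arrays exceeded the start, a share near the 21.8% of all genes, and Trat1 was the member called. The mean level of the list at this start was 6.63 to 7.01. At 0 weeks it was 7.12 to 7.57 in PBS and 7.02 to 7.66 in jak1i. The 24-week levels of 7.49 and 6.87 did not exceed the range of the 9 PBS arrays, 6.98 to 7.57. The receptor chain gene Cd3g read 7.97, 8.38 and 7.98 at 0 weeks and 9.22 and 8.68 at 24 weeks, and Cd3e read 6.99, 7.35 and 7.27 and then 7.77 and 7.51. Both stood above the start in each array, without a call, at 0.84 (limma adjusted p = 0.178) and 0.44 (limma adjusted p = 0.221). The co-receptor gene Cd8a of killer T cells read 7.30, 7.71 and 6.82 and then 7.63 and 6.68, within or just below the start. The 16 regulatory T cell and checkpoint genes had a median of −0.05 (0.13 and −0.29 in replicates 1 and 2). Of these, Ikzf2, a transcription factor of regulatory T cells, read 9.38, 9.29 and 9.64 and then 10.43 and 10.65, and was not called (1.10, limma adjusted p = 0.168). Of its 3 probe sets 1 was lower (−0.19), and at 12 weeks the gene already read 10.76, 10.66 and 10.20.

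A comparison of 24 with 12 weeks asked whether lymphocyte genes stood above their level at 12 weeks, where they were low in this arm. Of 18193 genes 6 were called and all rose (0.0330%, with 0 lower, smallest adjusted p = 0.00209), each at least 2-fold, and 938 had an unadjusted p under 0.05. They were Klrd1, Nkg7 and Ctsw of the cytotoxic list, Trat1 and Cd3d of the T cell list, and Cdh17. Klrd1, the CD94 receptor of NK cells and killer T cells, read 4.91, 5.98 and 5.68 at 12 weeks and 8.78 and 7.49 at 24 weeks, a rise of 2.61 (SE 0.45, limma adjusted p = 0.0221). Nkg7, a granule membrane protein, read 5.42, 6.41 and 6.39 and then 9.06 and 8.06, a rise of 2.49 (SE 0.37, limma adjusted p = 0.00622). Both arrays stood above all 3 arrays of 12 weeks, and replicate 1 was the higher. Ctsw, a protease of killer cells, read 6.65, 6.99 and 7.04 and then 9.58 and 8.42, a rise of 2.11 (SE 0.35, limma adjusted p = 0.0175). Cd3d of the T cell receptor complex read 6.63, 7.02 and 6.93 and then 8.75 and 7.79, a rise of 1.41 (SE 0.23, limma adjusted p = 0.0175). Trat1 rose by 1.70 (SE 0.22, limma adjusted p = 0.00209) and Cdh17 by 1.24 (SE 0.21, limma adjusted p = 0.0175). Klrd1, Nkg7, Ctsw and Cd3d overlapped with their values at 0 weeks. The plot of immune genes by week shows this for Klrd1, Nkg7 and Cd3d, and Ctsw is not drawn there.

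The sequence before the start of Nkg7 is shown because it holds a GAS motif, the element at which STAT proteins bind after JAK signalling. It is from RefSeq on GRCm38.p6, plus strand, chr7:43436888-43437137, with the GAS motif TTCNNNGAA and a CCAAT box in capitals.
Nkg7: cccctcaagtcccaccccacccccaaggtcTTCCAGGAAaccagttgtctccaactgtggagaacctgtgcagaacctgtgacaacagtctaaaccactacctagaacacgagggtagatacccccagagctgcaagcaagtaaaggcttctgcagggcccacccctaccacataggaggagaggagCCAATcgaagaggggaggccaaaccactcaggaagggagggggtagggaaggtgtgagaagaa
The GAS motif begins 220 bases and the CCAAT box 63 bases before the start, and they share no base. GAS was found in 7.21% of all promoters and in 2 of the 3 promoters available for the 6 genes called between 12 and 24 weeks. Nkg7, shown for its motif, is among these 2, so the count is a description. Here too a match is not a site of binding, and a part of STAT proteins was not tested.

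By lists, 3 of 22 cytotoxic genes and 2 of 20 T cell genes were called between 12 and 24 weeks, at median differences of 0.93 and 0.76 beside 0.04 over all genes. In 15 of the 22 and 16 of the 20 both 24-week arrays exceeded all 12-week arrays, which held for 16.7% of all genes. The cytotoxic list had a mean level of 6.53 to 6.91 at 0 weeks, 5.20 to 5.56 at 12 weeks, and 7.0 and 5.99 at 24 weeks. Replicate 1 thus stood above the start range of this arm and replicate 2 between its ranges of 12 and 0 weeks. At 0 weeks the list was at 6.84 to 7.26 in PBS and 6.96 to 7.27 in jak1i, and replicate 1 lay within both. The T cell list was at 6.63 to 7.01, 6.15 to 6.40, and 7.49 and 6.87. The call count differed by array: it was 31 with replicate 1 alone and 0 with replicate 2 alone (smallest adjusted p 0.0563). Among the 31, named after their values were seen, were the IL-2 and IL-15 receptor chain gene Il2rb (2.15, limma adjusted p = 0.011), the transcription factor gene Tbx21 (2.13, limma adjusted p = 0.0214) and the tissue-residence integrin gene Itgae (2.29, limma adjusted p = 0.0207). All 6 calls held with the hair keratin or the muscle level as a covariate, 1 and 2 genes passed without the 12-week arrays 1 and 3, and 0 passed with the compared arrays alone.

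**Figure D3:**
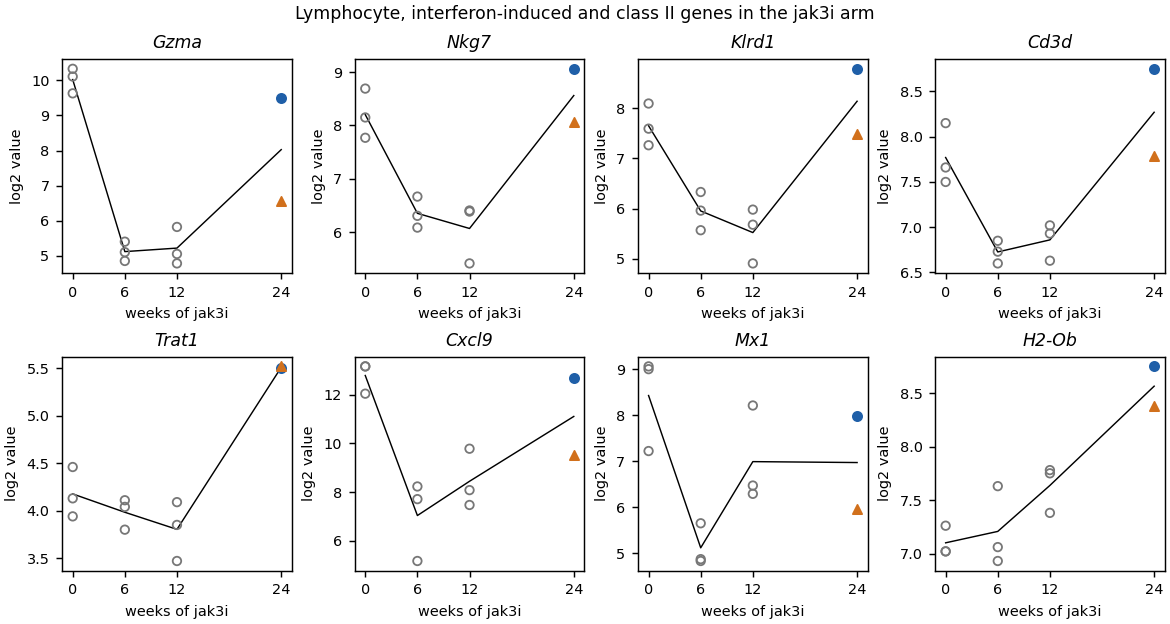
Log2 value (y axis) of 8 genes by week of jak3i (x axis), with open circles for arrays at 0, 6 and 12 weeks, a blue circle for replicate 1 and an orange triangle for replicate 2 at 24 weeks, and a line through the group means. Gzma, Nkg7, Klrd1, Cd3d and Cxcl9 were lower at 6 and 12 weeks than at 0 weeks, and at 24 weeks replicate 1 lay above replicate 2 in each of them, whereas Trat1 and H2-Ob were above every earlier array.

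Interferon-γ response genes stood near the start in replicate 1 and below it in replicate 2. Their 23 genes had a median of −0.63 from the start, made of 0.07 in replicate 1 and −1.21 in replicate 2, and 0 were called. Ifng itself read 7.86, 7.34 and 6.02 at 0 weeks and 7.14 and 4.48 at 24 weeks. Cxcl10, a chemokine gene that draws CXCR3-bearing T cells, read 11.71, 11.42 and 10.01 at 0 weeks, 6.25, 6.50 and 9.03 at 12 weeks, and 10.72 and 7.93 at 24 weeks. Cxcl9 read 13.16, 13.16 and 12.04, then 7.47, 8.08 and 9.78, and then 12.69 and 9.52. In both genes replicate 1 was within the start range and replicate 2 below it and within the 12-week range. The differences from the start were −1.72 (SE 1.13, 95% interval −4.06 to 0.62, limma adjusted p = 0.436) for Cxcl10 and −1.68 (SE 1.20, 95% interval −4.16 to 0.80, limma adjusted p = 0.474) for Cxcl9. Against 12 weeks the list had a median of 1.18, and 22 of its genes in replicate 1 and 20 in replicate 2 lay above the 12-week mean, again with 0 calls. Over all genes those shares were 54.4% and 61.5%.

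Cxcl10 is shown as a reference for the interferon elements. The 250 bases before its start are from RefSeq on GRCm38.p6, minus strand, chr5:92348890-92349139, with the core of the interferon-stimulated response element, spelled GAAA, any 2 bases and GAAA, and a CCAAT box in capitals.
Cxcl10: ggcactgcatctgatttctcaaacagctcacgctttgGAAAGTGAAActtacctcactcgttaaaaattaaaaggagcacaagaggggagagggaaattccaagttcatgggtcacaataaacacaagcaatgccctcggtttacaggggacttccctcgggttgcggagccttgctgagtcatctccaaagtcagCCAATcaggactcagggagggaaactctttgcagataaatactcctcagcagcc
The response element core begins 213 bases and the CCAAT box 54 bases before the start, with no shared base. On both strands the core was found in 3.03% of all promoters, in 38.9% of 18 promoters of the interferon-γ list and in 40% of 20 promoters of the type I interferon list, and in 0 of 14 promoters of the called higher genes. GAS was found in 38.9% and 20% of the promoters of these lists and in 7.14% of those of the called higher genes.

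Type I interferon genes lay lower than at the start in more members. The 23 genes had a median of −0.85 (−0.24 in replicate 1 and −1.40 in replicate 2), 8 had both arrays below the start (11.8% of all genes did), and 0 were called. Irf7, the transcription factor that amplifies this response, read 9.09, 9.06 and 8.52 at 0 weeks and 8.37 and 6.76 at 24 weeks (−1.32, SE 0.50, limma adjusted p = 0.197). Mx1, an antiviral GTPase, read 9.06, 9.0 and 7.22 and then 7.99 and 5.95. Against 12 weeks this list had a median of 0.05, where the 12-week replicate 3 read 8.21 for Mx1 beside 6.47 and 6.29 in the others. The MHC class I processing list of 11 genes was at −0.27 from the start (0.11 and −0.67) and at 0.73 from 12 weeks. In 10 of the 11 both arrays lay above all 12-week arrays, beside 16.7% of all genes. The peptide transporter gene Tap1 read 10.71, 10.72 and 10.06, then 9.27, 9.20 and 9.49, and then 10.62 and 9.78. Its change from 12 weeks was not called (0.88, limma adjusted p = 0.804).

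Among genes of the JAK and STAT pathway 0 were called, and members lay on both sides of the start. Jak3 read 5.72, 5.51 and 5.74 at 0 weeks and 5.83 and 5.71 at 24 weeks, with a difference of 0.11 (SE 0.16, 95% interval −0.22 to 0.44). Jak1 read 10.27, 10.64 and 10.43 and then 10.66 and 10.55. The 10 Janus kinase and STAT genes had a median of 0.14, the 18 SOCS feedback and STAT target genes −0.03, and the 12 gamma-chain cytokine genes −0.03. Both arrays lay above the start in 4, 5 and 2 of them and below it in 1, 4 and 1, beside 21.8% and 11.8% of all genes. Stat5b, which carries signals of IL-2 and IL-15, read 8.52, 8.27 and 8.54 and then 8.87 and 9.33, above the start in both arrays (0.65, limma adjusted p = 0.128). Stat3, which carries signals of the IL-6 family, read 11.03, 11.06 and 11.09 and then 10.71 and 10.32, below it in both (−0.54, limma adjusted p = 0.191). The interferon signal gene Stat2 stood at −0.80 (limma adjusted p = 0.327) and the IL-4 receptor gene Il4ra at −0.73 (limma adjusted p = 0.269). Cish, a feedback gene induced by STAT5, read 9.83, 9.82 and 9.26, then 9.01, 9.05 and 9.29 at 12 weeks, and then 9.65 and 9.86. Bcl3, which lies downstream of cytokine signals, was below the start in both arrays at 7.82 and 6.91 against 8.27, 8.22 and 8.53, and was not called (−0.97, limma adjusted p = 0.223). The cytokine gene Il7 read 6.89, 7.19 and 6.99 and then 7.92 and 8.28, and Il15 read 7.29, 7.42 and 6.91 and then 8.31 and 7.83. Both exceeded the start in each array, without a call, at 1.08 (limma adjusted p = 0.168) and 0.86 (limma adjusted p = 0.146).

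Of myeloid lists, the 20 lymphocyte and monocyte chemokine genes had a median of −0.37 (0.22 and −1.02 in replicates 1 and 2), with Ccl27a as the member called. The receptor gene Ccr1 read 8.55, 8.63 and 7.91 at 0 weeks and 7.08 and 5.16 at 24 weeks, below the start in both arrays (−2.25, SE 0.77, limma adjusted p = 0.171). The chemokine gene Ccl5, made by killer cells, read 10.20, 10.57 and 9.54, then 6.18, 6.90 and 7.44 at 12 weeks, and then 10.30 and 8.58. The 18 macrophage genes were at −0.12 (0.39 and −0.72), and the 13 dendritic and Langerhans cell genes at 0.49 (0.86 and 0.10). Flt3, a receptor that dendritic cells depend on, read 5.82, 5.88 and 5.78 and then 6.90 and 6.77, well apart from the start but not called (1.01, SE 0.21, limma adjusted p = 0.0557). Neutrophil and inflammatory genes (21) lay at −0.58 (−0.41 and −0.76), with 11 of 21 below the start in both arrays, beside 11.8% of all genes, and the median was −1.51 without dim genes. S100a8, a neutrophil and stressed-epidermis gene, read 10.77, 10.91 and 13.65 and then 10.03 and 8.77, and at 12 weeks it ranged from 8.81 to 13.45. Mast cell genes (11) lay at 0.62 (0.98 and 0.78), or 1.32 without dim genes, and the mast cell protease gene Cpa3 read 8.54, 8.35 and 10.64 and then 10.44 and 11.02, where the third start array was as high as the later ones. B cell and plasma cell genes (13) lay at 0.19 (0.41 and −0.11), and Jchain, which joins secreted antibodies, read 7.0, 6.71 and 9.09 and then 9.74 and 8.98. None of these lists held a further call.

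Hair shaft genes had the largest list differences, without a call. The 12 hair shaft keratin genes had a median of −3.03 (−1.69 in replicate 1 and −4.20 in replicate 2), the 30 keratin-associated protein genes −3.12 (−1.67 and −5.11), and the 14 inner root sheath genes −2.56 (−1.06 and −4.21). Both arrays lay below the start in 10 of 12, 24 of 30 and 12 of 14 of them, beside 11.8% of all genes. With the hair keratin mean of each array as a covariate, the medians were −0.21, −0.03 and 0.03. That mean was taken over the members of the first 2 lists. Their medians near 0 were therefore fixed in advance and are not a result. Krt33a, a hair keratin gene, read 13.66, 12.64 and 11.91 at 0 weeks, 5.97, 4.84 and 9.37 at 12 weeks, and 11.02 and 7.08 at 24 weeks. Its difference from the start was −3.68 (SE 2.0, 95% interval −7.83 to 0.46, limma adjusted p = 0.346). Krt71 of the inner root sheath read 12.42, 11.64 and 11.11, then 6.36, 5.93 and 9.07, and then 10.45 and 7.59. In both genes replicate 1 stood between the start and every 12-week array, and replicate 2 within the 12-week range. The spread was wide inside other groups as well, since at 6 weeks the mean level of the hair shaft keratins was 12.06 in replicate 1 against 6.09 and 6.45 in the others.

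Regulators of the hair matrix followed at a smaller size, with a median of −0.69 over 16 genes (−0.70 and −0.83). Shh, a signal of the growing hair bulb, read 9.46, 7.98 and 9.23 and then 6.66 and 5.43, and Foxn1, the gene mutated in nude mice, 8.40, 7.28 and 6.90 and then 6.57 and 6.06. Both lay below the start in both arrays, at −2.84 (limma adjusted p = 0.294) and −1.21 (limma adjusted p = 0.375). Mitotic cell cycle genes (28) were at −0.87 (−0.40 and −1.34), with 25 of 28 below the start in both arrays and 20 at an unadjusted p under 0.05, beside 11.8% and 4.08% of all genes, and 0 called. The median was −0.39 with the hair keratin mean of each array as a covariate. Mki67, the gene of the proliferation antigen Ki-67, read 11.24, 11.05 and 11.04 and then 10.65 and 9.24 (−1.17, SE 0.47, limma adjusted p = 0.221). Melanocyte genes (13) were at −1.35 in the median and similar in the 2 arrays (−1.37 and −1.23), and −0.35 with that covariate. The pigment granule gene Pmel read 10.41, 7.85 and 9.51 and then 6.93 and 6.49, so the start arrays themselves were spread widely. Its difference was −2.55 (SE 1.04, 95% interval −4.70 to −0.40, limma adjusted p = 0.224).

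Bulge and hair germ stem cell genes (16) had a median of 0.41 (0.09 and 0.68). Krt15, a keratin of the bulge, read 11.74, 11.29 and 12.36 at 0 weeks, 13.34, 13.24 and 13.04 at 12 weeks, and 12.21 and 13.66 at 24 weeks, replicate 1 within the start range and replicate 2 above all earlier arrays named here. Dermal papilla genes (20) were at 0.13 (−0.13 and 0.38), and the FGF, Wnt and BMP signals of the hair cycle (26 genes) at −0.06 (−0.10 and 0.05). Among the latter the Wnt antagonist gene Dkk2 read 6.42, 7.45 and 7.22 and then 8.34 and 8.82, above the start in both arrays and not called (1.55, SE 0.46, limma adjusted p = 0.132).

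**Figure D4:**
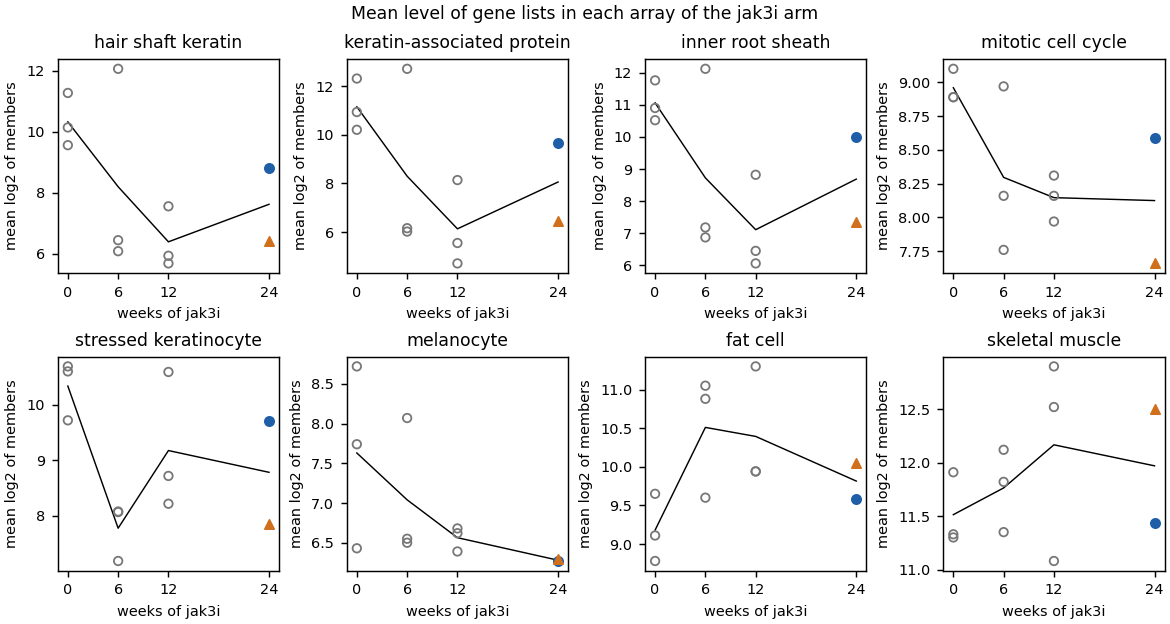
Mean log2 level of the members of 8 gene lists (y axis) by week of jak3i (x axis), with open circles for arrays at 0, 6 and 12 weeks, a blue circle for replicate 1 and an orange triangle for replicate 2 at 24 weeks, and a line through the group means. Replicate 1 at 24 weeks lies above replicate 2 for the hair, cell cycle and stressed keratinocyte lists and below it for fat and muscle, and 1 array at 6 weeks carries hair shaft keratins at 12.06, above every start array.

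Stressed keratinocyte genes (19) had a median of −1.02 (−0.57 and −1.78), and 7 lay below the start in both arrays, beside 11.8% of all genes. Krt6b, a keratin of wounded or inflamed epidermis, read 11.11, 13.36 and 13.17 at 0 weeks, 8.75, 11.11 and 13.69 at 12 weeks, and 10.51 and 6.67 at 24 weeks. The difference was −3.96 (SE 1.45, 95% interval −6.95 to −0.96, limma adjusted p = 0.187), and the 12-week arrays alone spanned the range of the start and of replicate 1. For Stfa3 the difference was −3.15 (SE 0.88, limma adjusted p = 0.124). Epidermal terminal differentiation genes (23) were at 0.13 (0.27 and −0.19) and basal epidermis genes (9) at 0.30 (0.20 and 0.30). The protease gene Casp14 of cornifying cells read 9.78, 9.47 and 9.18 and then 8.86 and 7.24, below the start in both arrays without a call (−1.43, limma adjusted p = 0.154). Col17a1, which anchors basal cells, read 11.31, 11.62 and 11.63 and then 11.88 and 12.62, above the start in both arrays without a call (0.73, limma adjusted p = 0.214).

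Fat cell genes (23) had a median of 0.59 (0.30 and 0.76) and the fat hormone gene Adipoq read 10.57, 9.59 and 11.82 and then 11.80 and 12.35, which overlaps with the start. Sebaceous gland genes (15) were at 0.27, with −0.05 in replicate 1 and 0.69 in replicate 2, and turned to −0.16 with the hair keratin covariate. Endothelial genes (20) were at 0.59 (0.19 and 1.02), and Schwann cell myelin genes (8) at 0.40 (0.30 and 0.60). Vwf, a clotting protein of vessel walls, read 7.09, 6.85 and 7.65 and then 8.09 and 8.46, and Mbp, a myelin protein, 8.67, 8.73 and 9.40 and then 9.79 and 11.13. Both stood above the start in both arrays and were not called, at 1.08 (limma adjusted p = 0.225) and 1.52 (limma adjusted p = 0.196). Skeletal muscle genes (24) had a median of 0.59, which was −0.04 in replicate 1 and 1.24 in replicate 2, and their mean level was 11.30 to 11.91 at 0 weeks and 11.44 and 12.50 at 24 weeks. The fast myosin gene Myh4 went the other way in replicate 2, where it read 8.02 beside 12.38 in replicate 1 and 12.17 to 13.43 at the start. Collagen genes (19) lay at 0.03 (0.33 and −0.32), matrix metalloproteinase and inhibitor genes (15) at 0.20 (0.28 and −0.14), retinoid metabolism genes (17) at −0.03 (0.23 and −0.20) and red blood cell genes (5) at −0.10 (−0.19 and 0.03). Without dim genes the retinoid list turned to 0.44. Clock output genes (17) lay at 0.15 (−0.23 and 0.53), and at −0.26 with the hair keratin covariate. In none of these lists was a member called.

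**Figure D5:**
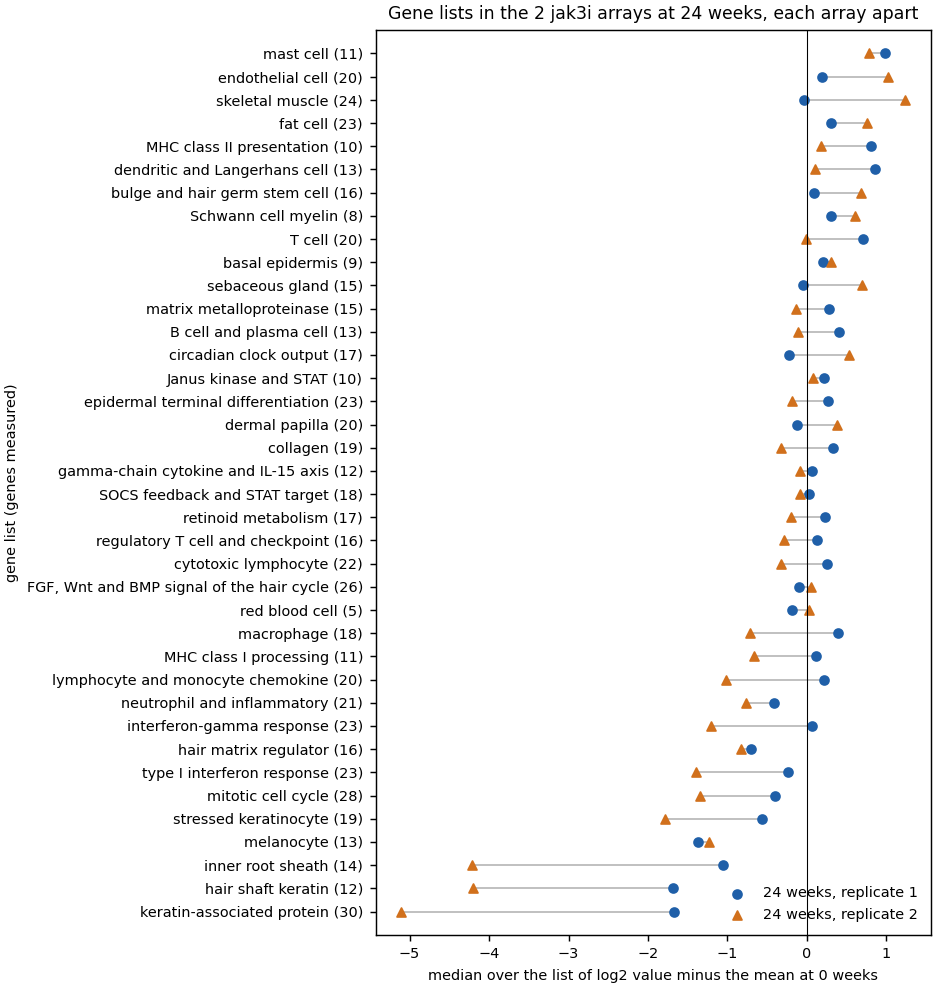
Median over each gene list of the log2 difference from the mean at 0 weeks (x axis), for replicate 1 (blue circles) and replicate 2 (orange triangles) at 24 weeks, with the 38 lists (y axis) sorted by the median over both arrays and the number of genes in brackets. In replicate 2 the 3 hair fibre lists lie farthest from 0, and they differ most between the arrays, and the interferon-γ, macrophage and chemokine lists lie above 0 in replicate 1 and below it in replicate 2.

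The change over 24 weeks was also set against that of jak1i, whose arrays at 0 and 24 weeks number 3 and 2. The difference between the arms was called for 0 of 18193 genes in limma (0%), with 369 genes at an unadjusted p under 0.05 and a smallest adjusted p of 0.999, so the data do not separate the 24-week changes of the 2 arms and do not show that they are alike. The smallest p belonged to Fasl and to T cell genes. Fasl read 6.54, 6.95 and 5.75 at 0 weeks of jak1i and 4.33 and 3.82 at 24 weeks, a change of −2.34 beside −0.06 in jak3i, with a difference between the arms of 2.28 (SE 0.59, 95% interval 1.06 to 3.51). Fasl started lower in jak3i, at 4.32 to 5.50, so the arms differed at the start. Cd3g read 9.17, 9.66 and 8.60 and then 8.55 and 8.27 in jak1i, a change of −0.73 beside 0.84 in jak3i and a difference of 1.57 (SE 0.42, 95% interval 0.70 to 2.44). Themis, a signalling protein of T cells, changed by −0.69 and 0.77, with a difference of 1.45 (SE 0.37, 95% interval 0.68 to 2.22). At 24 weeks the Cd3g arrays of jak1i lay below those of jak3i, whereas at 0 weeks they lay above. For all 20 genes called in jak3i the changes in jak1i had the same sign. They were 1.19 for H2-Ob, 0.70 for H2-Oa, 1.35 for Il34 and 0.16 for Trat1 among the rises, and −0.74 for Prrc2c among the falls. The share of all genes with the same sign in both arms was not computed. Both arms leaned higher at an unadjusted p under 0.05, with 2380 higher and 742 lower in jak3i and 2479 and 1230 in jak1i.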

How the data were processed

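RNA of skin was measured on 31 Affymetrix arrays in 11 groups. Per the submitters' processing notes RMA was used (no version given), and the deposited table holds log2 values (2.59 to 14.69, array medians 6.05 to 6.24), checked on the file. The number of arrays limits the precision. Of 45101 probe sets 64 were controls, 34945 had 1 gene symbol, 932 several and 9160 none. Each of the 18193 genes was represented by its brightest probe set on average across all arrays, and 9010 genes had several.

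One model with 11 group means was fitted with limma 3.58.1 in R 4.3.3 (20 residual and 2.50 prior degrees of freedom), tested on simulated data. Benjamini-Hochberg adjusted p-values cover all genes. Named genes were the called genes without overlap of the groups (up to 15 a direction, filled by smallest p), the 4 members with the largest difference in each of 38 lists (654 of 723 genes measured), up to 6 called genes a direction, or the 4 with the smallest p, of the other comparisons, and a fixed panel. The comparison, members and lists were chosen with earlier results of these data known. Week was read from the titles. No detection calls or scan times entered the fits. Promoters came from RefSeq on GRCm38.p6, for 14452 genes.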

Additional observations from a re-analysis of the deposited data

How the results depend on the processing

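All 20 genes called between 0 and 24 weeks had the same sign in each alternative that measured them (15 were measured without dim genes). Their count was 5 with arm and number as a random replicate block, 10 after centring (2 higher and 8 lower), and 0 with the compared arrays alone, with the hair keratin mean or the skeletal muscle mean as a covariate, or with the mean of all probe sets; 2361, 1567, 2828 and 2917 genes then had an unadjusted p under 0.05. It was 20 with replicate number as a fixed replicate block (13 higher and 7 lower, 13 of them shared), 17 with a trended and robust variance and 26 without dim genes. Leaving out 1 array gave 0 to 310. The 6 calls between 12 and 24 weeks became 0 with the compared arrays alone (1158 at an unadjusted p under 0.05), 4 to 8 in the other fits and 0 to 31 with 1 array left out. They stayed at 6 under both replicate blocks. The comparison with jak1i gave 0 calls in each fit to all its arrays, replicate blocks included, and 0 to 1 with 1 array left out: Krt2 (−6.37) without the 24-week jak1i replicate 1 and Chil4 (−2.38) without replicate 2. The cause of these shifts was not tested. Fits that left out an array also had fewer samples. Samples of the same number deviated together in some pairs and not in others: of 39 pairs within an arm, r ranged from −0.606 to 0.495 and 12 were over 0.1. In the jak3i arm r ranged from −0.437 to 0.495 and 7 of 15 pairs were over 0.1. With the hair keratin mean as a covariate the list medians became −0.21 for hair shaft keratins and −0.03 for keratin-associated proteins. The covariate is the mean of these same genes, so these medians near 0 were fixed in advance. For other lists they became 0.03 for the inner root sheath, −0.39 for the cell cycle, −0.35 for melanocytes, −0.16 for sebaceous gland and −0.26 for clock output. Without dim genes they became −1.51 for neutrophil, 1.32 for mast cell and 0.44 for retinoid genes. With 2 arrays at 24 weeks, wide intervals limit all statements on hair and interferon genes.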
